A study of Mus musculus with 12 samples.

Results

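The genes of glycolysis and of the response to low oxygen were followed in RNA from whole lungs of mice with the MMTV-PyMT mammary tumour transgene. The set held 32 genes, picked by name from the deposited table of gene counts, which lists 56748 genes. Aldoa has 2 rows in the table, so the set filled 33 rows, and all 33 were among the 20229 rows with enough reads to be tested. By role the genes are 2 transporters, 14 enzymes of the pathway, 2 regulators of its flow, 3 genes of oxygen sensing and 11 genes induced by low oxygen.

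Glycolysis splits glucose into pyruvate and yields ATP without oxygen, and lactate dehydrogenase then turns pyruvate into lactate. In cells short of oxygen the prolyl hydroxylases of the EGLN family, which need oxygen to work, no longer mark the alpha subunits of the hypoxia-inducible factors (HIF) for degradation. HIF then binds short DNA elements whose core reads ACGTG or GCGTG and raises transcription of glycolytic enzymes, glucose transporters and genes of vessel tone, mitophagy and collagen folding. The lung is a well oxygenated organ whose endothelium and epithelium are known for high levels of the HIF subunit gene Epas1, and tumours are known for high glycolysis.

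There were 12 libraries, 4 each of S1pr1 KO, C3 KO and WT lung, taken at 4.5 months. S1pr1 KO mice are MMTV-Cre with floxed S1pr1 (S1pr1fl/fl), and C3 KO mice are MMTV-Cre with the C3Tdt allele. All 3 groups carry MMTV-PyMT, in which the mammary tumour virus promoter, active mainly in mammary epithelium, drives the tumour antigen, and the same promoter drives the recombinase in MMTV-Cre. The design text gives WT as MMTV-Cre; MMTV-PyMT, whereas the strain label of the WT samples names MMTV-PyMT alone. The labels do not state that each library is its own animal, and the p-values given here therefore cover no more than the differences among these libraries, which may be technical. Total counts ranged from 32274797 to 53063470 per library, and the 33 rows took 0.282% to 0.332% of them.

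The targeted genes did not separate the groups. S1pr1, the sphingosine-1-phosphate receptor, was at 132, 366, 142 and 154 CPM (counts scaled to the library size after TMM normalization) in S1pr1 KO 1 to 4, against 295, 491, 319 and 330 CPM in WT (log2 fold change -0.85, SE 0.29, edgeR adjusted p = 0.153). C3, the central complement protein, was at 475, 465, 601 and 1416 CPM in C3 KO 1 to 4, against 1025, 787, 903 and 799 CPM in WT (log2 fold change -0.25, SE 0.30, edgeR adjusted p = 0.813). The library labelled S1pr1 KO 2 lay inside the WT range of S1pr1 and the library labelled C3 KO 4 lay above the WT range of C3. For some genes, not chosen by how far the value moved, the value without both libraries is given as well. Markers of the labelled tissue were abundant: 7 genes of lung epithelium summed to between 31190 and 47710 CPM and 5 of lung endothelium to between 2089 and 3065 CPM in the 12 libraries, with none of them at 0.

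The HIF core is shown in the promoters of the 5 genes of oxygen sensing and hypoxia response that the results below turn on most, namely those with the widest swings between libraries and the pair of collagen prolyl hydroxylases, for which the same 2 libraries were high. Each sequence is the 250 bases before the start of the gene in RefSeq (build GRCm38.p6), written 5′ to 3′ on the gene's strand, with ACGTG or GCGTG in capitals where it stands on either strand (as CACGT or CACGC on the other). The stretches are chr7:110627407-110627656 on the plus strand for Adm, chr10:59951771-59952020 on the minus strand for Ddit4, chr12:54203875-54204124 on the minus strand for Egln3, chr10:59323046-59323295 on the plus strand for P4ha1 and chr11:54100674-54100923 on the plus strand for P4ha2.
Adm: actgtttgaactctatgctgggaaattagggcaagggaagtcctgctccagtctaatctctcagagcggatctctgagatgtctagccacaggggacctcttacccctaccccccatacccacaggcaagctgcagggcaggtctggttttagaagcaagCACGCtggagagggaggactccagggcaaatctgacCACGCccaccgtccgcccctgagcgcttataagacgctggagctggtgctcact
Ddit4: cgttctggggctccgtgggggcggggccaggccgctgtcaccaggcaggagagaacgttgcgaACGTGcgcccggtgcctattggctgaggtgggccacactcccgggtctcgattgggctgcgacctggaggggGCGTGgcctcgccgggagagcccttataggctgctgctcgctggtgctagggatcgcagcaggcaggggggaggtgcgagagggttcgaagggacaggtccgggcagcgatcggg
Egln3: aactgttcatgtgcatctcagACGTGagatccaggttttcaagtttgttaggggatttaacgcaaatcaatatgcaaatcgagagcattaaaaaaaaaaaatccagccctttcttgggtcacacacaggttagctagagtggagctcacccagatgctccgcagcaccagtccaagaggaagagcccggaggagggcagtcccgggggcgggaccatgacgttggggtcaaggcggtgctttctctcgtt
P4ha1: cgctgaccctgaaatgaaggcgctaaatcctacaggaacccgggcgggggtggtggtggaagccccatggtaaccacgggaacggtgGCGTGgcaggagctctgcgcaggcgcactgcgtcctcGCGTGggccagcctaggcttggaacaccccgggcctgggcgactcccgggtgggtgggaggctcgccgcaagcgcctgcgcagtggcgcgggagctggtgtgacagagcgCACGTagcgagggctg
P4ha2: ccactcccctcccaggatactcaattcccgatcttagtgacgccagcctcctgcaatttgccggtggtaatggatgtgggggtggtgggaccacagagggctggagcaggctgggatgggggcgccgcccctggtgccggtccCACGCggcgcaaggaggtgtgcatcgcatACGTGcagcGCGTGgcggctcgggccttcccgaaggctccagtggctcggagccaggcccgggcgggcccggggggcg
Adm and Ddit4 each held 2 such stretches, Egln3 held 1, and P4ha1 and P4ha2 each held 3.

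In windows that also took in the 50 bases after the start (300 bases in all), 34 of 40 windows of the set (85%) held the core, and 28 of the 30 genes with an entry had it in at least 1 window. Ndrg1 and Bnip3l had no entry. Among all 32851 windows the share was 43.8%, and 12628 of all 27025 genes had the core in at least 1 window. The set's windows also held more CG dinucleotides, with a median of 23 against 7 over all windows, and both cores contain a CG. A match to these letters describes the sequence and does not show a bound site.

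No gene of the set passed the test in any comparison. In S1pr1 KO against WT, 0 of 33 rows had an edgeR adjusted p under 0.05, against 274 of 20229 genes (1.35%), with 166 higher (0.821%) and 108 lower (0.534%). In S1pr1 KO against C3 KO, 0 of 33 rows and 0 of 20229 genes (0%) passed. In C3 KO against WT, 0 of 33 rows passed, against 2 of 20229 genes (0.00989%), with 1 higher and 1 lower (0.00494% each). At an unadjusted p under 0.05 the set had 2 rows in S1pr1 KO against WT (Pfkp and Adm, 6.06%), where all genes had 18%. It had 2 in S1pr1 KO against C3 KO (Pfkp and Mif, 6.06%), where all genes had 12%, and 3 in C3 KO against WT (Gpi1, Egln1 and Higd1a, 9.09%), where all genes had 11%. DESeq2 gave an adjusted p for 32 of the 33 rows and called 1 member, Adm in S1pr1 KO against WT, where it called 5.4% of all genes. DESeq2 called no member in S1pr1 KO against C3 KO (1.38% of all genes) or in C3 KO against WT (0.728%). limma voom with quality weights called no member, against 4.59% of all genes in S1pr1 KO against WT, 0.178% in S1pr1 KO against C3 KO and 0.104% in C3 KO against WT. limma on log2(FPKM + 1) called none either, against 0.976% of all genes in S1pr1 KO against WT, 0.04% in S1pr1 KO against C3 KO and 0.0342% in C3 KO against WT.

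The set's median log2 fold change lay close to 0 in each comparison. It was -0.006 in S1pr1 KO against WT (16 rows above 0 and 17 below), 0.08 in S1pr1 KO against C3 KO (21 above and 12 below) and -0.06 in C3 KO against WT (10 above and 23 below). Over all genes tested the medians were -0.001 in both comparisons with WT and 0.003 in S1pr1 KO against C3 KO. In bulk lung RNA, fewer cells of a type and less RNA per cell cannot be told apart.

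**Figure D1:**
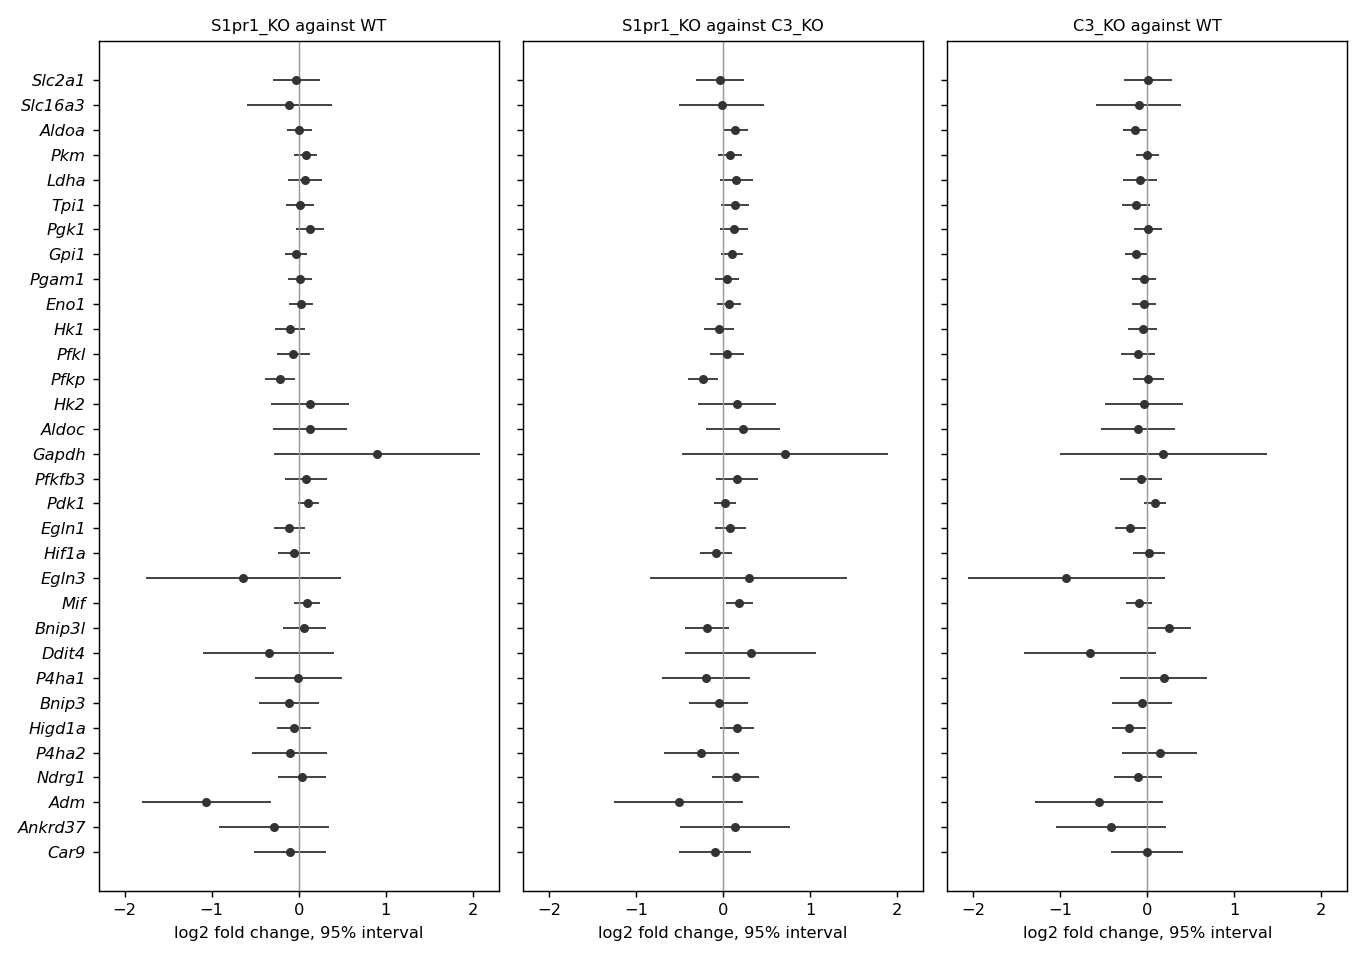
Log2 fold change (horizontal axis) of each of the 32 genes (rows, ordered by role) in S1pr1 KO against WT, S1pr1 KO against C3 KO and C3 KO against WT; points are edgeR estimates and bars their 95% intervals. Intervals are narrow for most enzymes, such as Pkm from -0.13 to 0.13 in C3 KO against WT, and wide for Gapdh, Egln3, Ddit4 and Adm.

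Levels were compared between genes per length, taken as the gene length listed with the counts. The deposited FPKM values (reads scaled to gene length and library size) had their highest median over 12 libraries in Aldoa (163 FPKM), Pkm (74.4 FPKM) and Ldha (66.1 FPKM), and their lowest in Egln3 (0.814 FPKM) and Car9 (0.797 FPKM), the membrane carbonic anhydrase often used as a marker of hypoxic tumour cells. Summed over the isoenzymes of each step, the median level was 168 FPKM for aldolase, 144 FPKM for lactate dehydrogenase and 74.6 FPKM for pyruvate kinase. It was 22.7 FPKM for hexokinase, 28.2 FPKM for phosphofructokinase, 36 FPKM for phosphoglucose isomerase, 40.3 FPKM for triosephosphate isomerase, 38.5 FPKM for phosphoglycerate kinase, 41.3 FPKM for phosphoglycerate mutase and 50.3 FPKM for enolase. The glyceraldehyde-3-phosphate dehydrogenase step stood apart at 4.38 FPKM, and its reads are taken up below. The order of genes and steps depends on the listed lengths, which may exceed those of the main transcripts. Gpi1, with a listed length of 6452 bases, had a median of 233 CPM and 36 FPKM. Pgk1, with 2244 bases, had a median of 86.8 CPM and 38.5 FPKM.

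**Figure D2:**
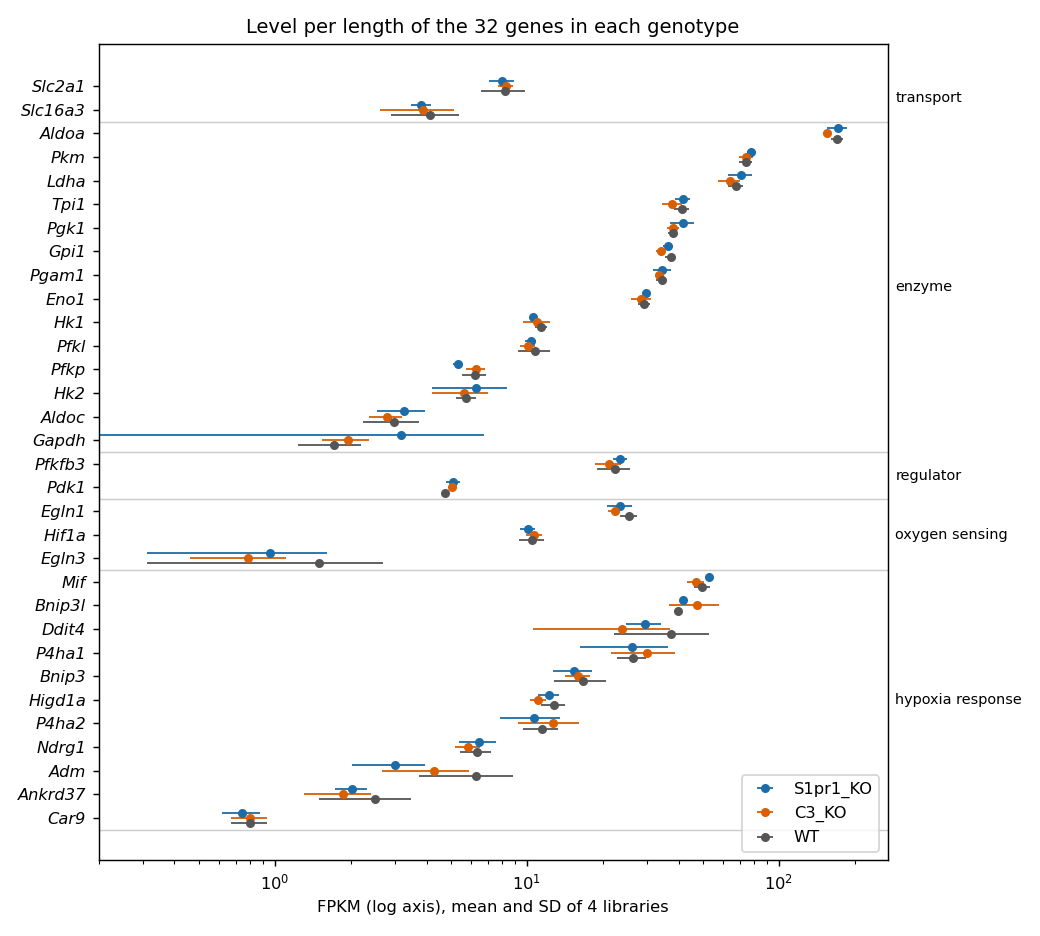
FPKM (horizontal log axis) of the 32 genes by genotype; points are means and bars the SD of 4 libraries, with S1pr1 KO uppermost, then C3 KO, then WT, and with the lower bar of Gapdh in S1pr1 KO running off the axis because its SD exceeds its mean. The genotypes overlap for nearly every gene while the genes themselves run from under 1 FPKM for Car9 to a median of 163 FPKM for Aldoa.

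The genes differed in how steady they were. The SD of log2 CPM over the 12 libraries had a median of 0.116 over the 15 enzyme rows, 0.173 over the 33 rows and 0.227 over all 20229 genes. Pgam1, the mutase that moves the phosphate on phosphoglycerate, was among the steadiest genes in the table (SD 0.076, percentile 5.99 of all genes), with Pdk1 (SD 0.078) and Pkm (SD 0.079) near it. Egln3 (SD 0.769, percentile 93), Gapdh (SD 0.764, percentile 92.9), Adm (SD 0.66, percentile 89.6) and Ddit4 (SD 0.595, percentile 86.4) varied most.

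The transporters overlapped between the genotypes. Slc2a1, the basal glucose transporter GLUT1, was at 25.7, 32.8, 27 and 27.3 CPM in S1pr1 KO, at 28.3, 26.4, 31 and 30 CPM in C3 KO and at 22.7, 25.8, 35.6 and 31.1 CPM in WT. Its log2 fold change was -0.03 in S1pr1 KO (95% interval -0.30 to 0.25) and 0.01 in C3 KO (-0.26 to 0.28) against WT. Slc16a3, the lactate exporter MCT4, was at 21.2, 17.5, 21.8 and 21.3 CPM in S1pr1 KO, at 16.4, 19.8, 30.2 and 16 CPM in C3 KO and at 24.9, 30.1, 16.7 and 16.6 CPM in WT. Both extremes of Slc16a3 lay in C3 KO, and the groups overlapped.

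Among the enzymes of the first steps, only Pfkp and Gpi1 had groups that did not overlap. Pfkp, the platelet-type phosphofructokinase (chromosome 13, bases 6629804 to 6698813, GRCm39), was at 70.1, 76.3, 69.2 and 71.9 CPM in S1pr1 KO, at 78, 84, 94 and 81.1 CPM in C3 KO and at 97.2, 81.3, 78.6 and 76.9 CPM in WT. Every S1pr1 KO library lay below every library of the other two groups, the nearest pair being 76.3 CPM in the library labelled S1pr1 KO 2 and 76.9 CPM in WT 4. The log2 fold change was -0.22 against WT (SE 0.08, 95% interval -0.39 to -0.04, edgeR adjusted p = 0.182) and -0.23 against C3 KO (SE 0.08, 95% interval -0.41 to -0.05, edgeR adjusted p = 0.307), so neither passed. Without the libraries labelled S1pr1 KO 2 and C3 KO 4 the value was -0.25 against WT (edgeR adjusted p = 0.168) and -0.28 against C3 KO (edgeR adjusted p = 0.238), and without WT 1 it was -0.14 against WT. Pfkp was the 1 member in 33 lower in S1pr1 KO without overlap, where 5.18% of all genes were against WT and 2.84% against C3 KO.

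Gpi1, phosphoglucose isomerase (chromosome 7, bases 33900755 to 33929761), was at 235, 243, 245 and 222 CPM in S1pr1 KO, at 225, 206, 229 and 221 CPM in C3 KO and at 239, 233, 260 and 233 CPM in WT. Every C3 KO library lay below every WT library, but the difference was small and did not pass (log2 fold change -0.13, SE 0.06, edgeR adjusted p = 0.434). Gpi1 and Egln1 were the 2 members of 33 lower in C3 KO than in WT without overlap (6.06%), where all genes had 3.09%. No member was higher without overlap in either knockout against WT, where 6.16% of all genes were in S1pr1 KO and 3% in C3 KO. The liver-type phosphofructokinase Pfkl lay between 67.6 and 74.5 CPM in S1pr1 KO, between 61.7 and 71.1 CPM in C3 KO and between 63.9 and 87.4 CPM in WT. WT 3 alone reached 87.4 CPM.

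The hexokinases, which trap glucose in the cell, differed in how evenly they were read. Hk1, the ubiquitous form, lay between 78.7 and 105 CPM in all 12 libraries. Hk2, the inducible form of muscle and tumours, was at 27, 55.2, 33.5 and 35.1 CPM in S1pr1 KO, at 35.5, 25.1, 29.5 and 44.4 CPM in C3 KO and at 34.3, 32.7, 39.2 and 31.9 CPM in WT. Its 2 highest libraries were those labelled S1pr1 KO 2 and C3 KO 4, and the WT libraries lay close together. Its log2 fold change was 0.13 in S1pr1 KO and -0.04 in C3 KO against WT, and without those 2 libraries -0.12 in S1pr1 KO (edgeR adjusted p = 0.675) and -0.20 in C3 KO (edgeR adjusted p = 0.583).

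Aldolase was led by Aldoa, which held 97.2% of the step's FPKM. Aldoa (chromosome 7, bases 126394406 to 126399923) was at 476, 566, 478 and 477 CPM in S1pr1 KO, at 446, 447, 443 and 473 CPM in C3 KO and at 471, 508, 530 and 483 CPM in WT. All S1pr1 KO libraries lay above all C3 KO libraries, the 1 member of 33 to do so, where 3.55% of all genes did. The difference did not pass (log2 fold change 0.14, SE 0.07, edgeR adjusted p = 0.426). It was 0.07 without the library labelled S1pr1 KO 2, which at 566 CPM was the highest of the 12, and 0.10 without that library and C3 KO 4 (edgeR adjusted p = 0.504). The other row named Aldoa, which lies beside it and has a listed length of 799 bases, had between 0.905 and 1.84 CPM. Aldoc, the form of brain, lay between 6.42 and 14 CPM and overlapped between groups.

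The later enzymes overlapped between the genotypes. Tpi1, triosephosphate isomerase, averaged 115 ± 7.61 CPM in S1pr1 KO, 104 ± 9.17 CPM in C3 KO and 114 ± 7.66 CPM in WT (SD, n = 4 each). Pgk1, phosphoglycerate kinase, averaged 93.7 ± 9.96 CPM in S1pr1 KO, 85.7 ± 4.76 CPM in C3 KO and 85.5 ± 3.46 CPM in WT. Pgam1 averaged 68.7 ± 5.44 CPM in S1pr1 KO, 66.4 ± 2.22 CPM in C3 KO and 68.2 ± 3.27 CPM in WT. The high end of Pgk1 and Pgam1 was the library labelled S1pr1 KO 2, at 105 and 76.1 CPM. Eno1, enolase, averaged 161 ± 4.38 CPM in S1pr1 KO, 153 ± 13.6 CPM in C3 KO and 158 ± 8.24 CPM in WT. Pkm, pyruvate kinase, was at 377, 409, 383 and 399 CPM in S1pr1 KO, at 353, 363, 404 and 365 CPM in C3 KO and at 374, 348, 400 and 363 CPM in WT. The 95% interval of its ratio ran from 0.963 to 1.16 in S1pr1 KO and from 0.911 to 1.1 in C3 KO against WT. Ldha, the lactate dehydrogenase subunit favoured in anaerobic tissue, was at 211, 269, 223 and 238 CPM in S1pr1 KO, at 216, 192, 198 and 239 CPM in C3 KO and at 208, 232, 240 and 217 CPM in WT, which overlap.

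Reads shared with pseudogenes limit some of these values. Of the 100-base words in the annotated exons of the reference (GENCODE M21), 67.03% in Pgk1, 53.11% in Gapdh, 41.35% in Mif, 39.74% in Pgam1 and 39.46% in Eno1 also occur in another gene. For Pgk1, Mif and Pgam1 the partner genes held under 1 CPM in every library, and for Eno1 between 2.636 and 5.219 CPM. Less of Pkm (7.52%) and Bnip3l (16.44%) is shared, but their partner genes held more reads. These were between 14.26 and 25.18 CPM for Pkm and between 10.1 and 15.74 CPM for Bnip3l. The handling of multiply mapped reads is not given in the sources used here, and any reads dropped as such do not enter these sums.

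Gapdh, usually one of the most abundant transcripts of a tissue, was at 35.6, 6.24, 5.47 and 5.73 CPM in S1pr1 KO, at 9.77, 5.74, 8.33 and 8.68 CPM in C3 KO and at 8.52, 7.35, 8.49 and 4.25 CPM in WT. S1pr1 KO 1 was at 35.6 CPM while no other library passed 9.77 CPM. Its words are shared with 84 genes, of which 82 are pseudogenes. The most read of them, the processed pseudogene Gm13394 (chromosome 2, bases 28823622 to 28824621, GRCm39), went the other way: it was at 1.269 CPM in S1pr1 KO 1 and between 46.1 and 63.3 CPM in the other 11 libraries. Gapdh and all its copies together summed to 49.68 CPM in S1pr1 KO 1 and to between 62.79 and 79.3 CPM in the others. With the copies summed, the log2 fold change in S1pr1 KO against WT was -0.05 (edgeR adjusted p = 0.874), against 0.90 for Gapdh alone (SE 0.55, edgeR adjusted p = 0.422) and -0.30 for Gapdh alone without S1pr1 KO 1. Gapdh counts in this table are therefore uncertain as a level of the gene.

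**Figure D3:**
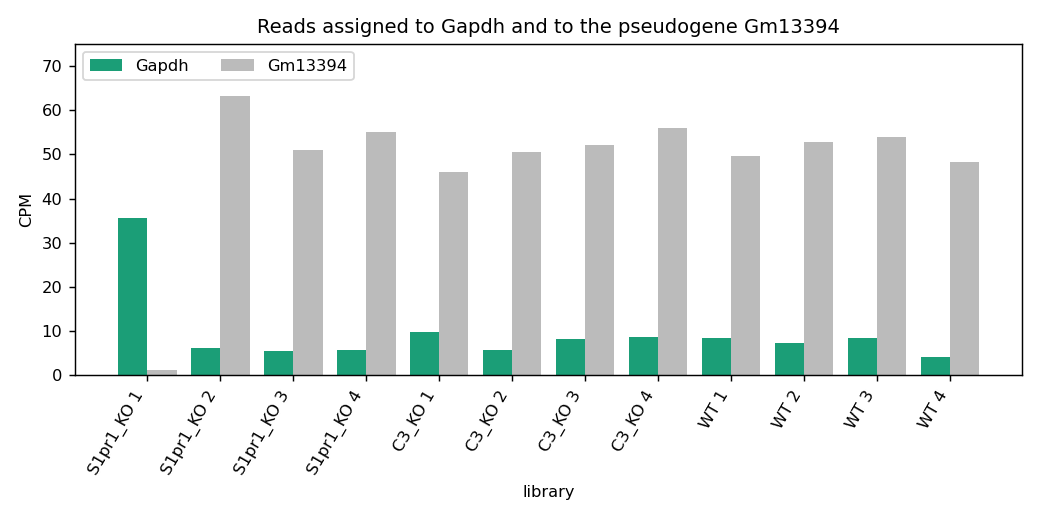
CPM (vertical axis) assigned to Gapdh and to its processed pseudogene Gm13394 in each of the 12 libraries. In S1pr1 KO 1 Gapdh stands at 35.6 CPM and Gm13394 at 1.269 CPM, whereas in the other 11 libraries Gm13394 stands between 46.1 and 63.3 CPM.

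The balance of isoenzymes within a library, which does not depend on its size, was compared for 3 pairs. The log2 ratio Hk2/Hk1 averaged -1.32 ± 0.43 in S1pr1 KO, -1.51 ± 0.54 in C3 KO and -1.5 ± 0.08 in WT (SD, n = 4 each). The WT libraries lay between -1.56 and -1.39, while the library labelled S1pr1 KO 2 reached -0.73, the library labelled C3 KO 4 reached -0.82 and C3 KO 2 was at -2.07. Aldoc/Aldoa averaged -5.57 ± 0.35 in S1pr1 KO, -5.65 ± 0.17 in C3 KO and -5.71 ± 0.38 in WT. Ldha/Ldhb, the balance of the anaerobic and aerobic lactate dehydrogenase subunits, averaged 0.93 ± 0.15 in S1pr1 KO, 0.84 ± 0.06 in C3 KO and 0.84 ± 0.13 in WT. The ratios are of counts without regard to gene length, so only their differences between libraries or groups can be read. By FPKM, Ldhb stood above Ldha, with a median of 76.8 FPKM against 66.1 FPKM. That order rests on listed gene lengths of 1570 bases for Ldhb and 3310 bases for Ldha, which may exceed those of the main transcripts. In reads Ldha was the higher, at 192 to 269 CPM against 106 to 148 CPM for Ldhb. None of the 9 comparisons passed a two-sided exact permutation test (Benjamini-Hochberg adjusted p = 1 each; lowest raw p = 0.314, where 4 against 4 allow 0.0286).

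Of the regulators, Pfkfb3, which makes the activator of phosphofructokinase, was at 195, 175, 180 and 166 CPM in S1pr1 KO, at 180, 164, 164 and 133 CPM in C3 KO and at 177, 199, 161 and 139 CPM in WT. Pdk1, the kinase that keeps pyruvate out of mitochondria by switching off pyruvate dehydrogenase, was at 38.4, 39.2, 43.7 and 38.8 CPM in S1pr1 KO, at 40.6, 39.4, 40.5 and 37.1 CPM in C3 KO and at 36, 36.5, 38.7 and 37.1 CPM in WT. Its log2 fold change was 0.11 in S1pr1 KO (95% interval -0.01 to 0.24, edgeR adjusted p = 0.334) and 0.09 in C3 KO (-0.04 to 0.21, edgeR adjusted p = 0.616). Both comparisons share the WT libraries.

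In oxygen sensing, Hif1a, the alpha subunit gene of HIF, overlapped between the groups: it averaged 60 ± 3.86 CPM in S1pr1 KO, 63.3 ± 4.78 CPM in C3 KO and 62.4 ± 6.81 CPM in WT (SD, n = 4 each). Its product is controlled mainly as a protein, which these data do not measure. Egln1, the main HIF prolyl hydroxylase (chromosome 8, bases 125635326 to 125676063), was at 87.5, 95.9, 74 and 82.3 CPM in S1pr1 KO, at 82.2, 84.1, 73.7 and 80.9 CPM in C3 KO and at 85.8, 87.3, 102 and 92.4 CPM in WT. Every C3 KO library lay below every WT library, with a log2 fold change of -0.19 (SE 0.08, 95% interval -0.37 to -0.02) that did not pass (edgeR adjusted p = 0.421). Per length, Epas1 far exceeded Hif1a, with a median of 584 FPKM against 10.3 FPKM, and of the 3 hydroxylases Egln2 was at 36.1, Egln1 at 23.5 and Egln3 at 0.814 FPKM.

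Egln3, the hydroxylase that low oxygen itself induces (chromosome 12, bases 54225767 to 54250646), was read 54 to 319 times per library. It stood at 1.53, 5.12, 1.49 and 2.14 CPM in S1pr1 KO, at 1.56, 1.73, 3.39 and 1.69 CPM in C3 KO and at 2.50, 8.75, 2.52 and 2.22 CPM in WT. In each group 1 library stood above the other 3: the library labelled S1pr1 KO 2, C3 KO 3 and WT 2. The library labelled S1pr1 KO 2 and WT 2 also had the highest sums of 9 skeletal muscle genes (of 12 listed, none at 0 in all libraries), at 200.7 CPM in S1pr1 KO 2 and 286.3 CPM in WT 2, against 11.09 to 20.96 CPM in the other 10 libraries. The log2 fold change was -0.64 in S1pr1 KO (SE 0.52) and -0.93 in C3 KO (SE 0.52) against WT, and neither passed (edgeR adjusted p = 0.564 in S1pr1 KO and 0.546 in C3 KO). Without WT 2 the values were 0.09 in S1pr1 KO and -0.20 in C3 KO against WT. Without the library labelled S1pr1 KO 2 the value in S1pr1 KO against WT was -1.22 (edgeR adjusted p = 0.237), and it was also -1.22 without that library and C3 KO 4 (edgeR adjusted p = 0.224). Against C3 KO the value in S1pr1 KO was 0.30 with all libraries and -0.38 without both (edgeR adjusted p = 0.803). With the muscle score as a covariate the values against WT were -0.52 in S1pr1 KO and -0.05 in C3 KO. The muscle sums were high only in WT 2 and the library labelled S1pr1 KO 2, so muscle cannot be told apart from these single libraries.

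Among the hypoxia response genes the largest log2 fold change was that of Adm in S1pr1 KO against WT. Adm encodes adrenomedullin, a vasodilator peptide of endothelium (chromosome 7, bases 110226868 to 110229027), and its promoter is the first of those shown above. It stood at 5.21, 6.88, 3.96 and 3.41 CPM in S1pr1 KO, at 5.06, 5.39, 6.55 and 10.7 CPM in C3 KO and at 4.66, 10.3, 11.3 and 14.5 CPM in WT. The S1pr1 KO libraries lay below 3 of the 4 WT libraries, and WT 1 lay among them. The log2 fold change in S1pr1 KO against WT was -1.06 (SE 0.34, 95% interval -1.81 to -0.32), which did not pass in edgeR (adjusted p = 0.131) and passed in DESeq2 (-1.07, adjusted p = 0.0279). It was -1.28 without the libraries labelled S1pr1 KO 2 and C3 KO 4 (edgeR adjusted p = 0.068), and with each library left out in turn it ran from -1.30 (without WT 1) to -0.84 (without WT 4). The 5 endothelial markers summed to 2367 to 2559 CPM in S1pr1 KO and 2761 to 3065 CPM in WT, without overlap. WT 1, the lowest WT library for Adm, was at 2878 CPM for these markers. C3 KO 1 to 4 were at 2795, 3064, 2848 and 2089 CPM, and the lowest of these, C3 KO 4, had the highest Adm of C3 KO. The part of these markers in the Adm value was not tested. In C3 KO against WT the value was -0.56 (SE 0.34, edgeR adjusted p = 0.586), and -0.84 without both libraries (edgeR adjusted p = 0.367).

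Ddit4, an inhibitor of mTOR signalling also induced by glucocorticoids and stress (chromosome 10, bases 59785491 to 59787656), split within groups. It stood at 43.4, 57.8, 47.1 and 59.9 CPM in S1pr1 KO, at 28.4, 24.1, 39.7 and 74.7 CPM in C3 KO and at 39.7, 90.3, 45.6 and 88.4 CPM in WT. The WT libraries formed a low and a high pair. The library labelled C3 KO 4 was the only C3 KO library above 39.7 CPM. The log2 fold change was -0.34 in S1pr1 KO (SE 0.35, edgeR adjusted p = 0.657) and -0.66 in C3 KO (SE 0.35, edgeR adjusted p = 0.517) against WT. Without the libraries labelled S1pr1 KO 2 and C3 KO 4 it was -0.40 in S1pr1 KO (edgeR adjusted p = 0.507) and -1.1 in C3 KO (edgeR adjusted p = 0.285).

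P4ha1 and P4ha2 encode the catalytic subunits of collagen prolyl hydroxylase, which collagen needs to fold. P4ha1 (chromosome 10, bases 59159118 to 59209126) was at 85.7, 168, 80.6 and 98.4 CPM in S1pr1 KO, at 113, 103, 104 and 175 CPM in C3 KO and at 99.2, 118, 94.3 and 123 CPM in WT. P4ha2 (chromosome 11, bases 53990921 to 54022491) was at 61, 93.1, 54.3 and 59.5 CPM in S1pr1 KO, at 73.5, 67.2, 66.1 and 111 CPM in C3 KO and at 57.5, 68.9, 80.6 and 81.5 CPM in WT. The libraries labelled S1pr1 KO 2 and C3 KO 4 were the 2 highest of 12 for both genes. No group difference passed, the log2 fold change of P4ha1 being -0.01 in S1pr1 KO and 0.19 in C3 KO against WT (edgeR adjusted p = 0.994 in S1pr1 KO and 0.822 in C3 KO). Without those 2 libraries the P4ha1 value was -0.30 in S1pr1 KO (edgeR adjusted p = 0.158) and -0.03 in C3 KO (edgeR adjusted p = 0.951). That of P4ha2 was -0.11 in S1pr1 KO and 0.14 in C3 KO against WT with all libraries. Without those 2 libraries the P4ha2 value was -0.31 in S1pr1 KO (edgeR adjusted p = 0.176) and -0.06 in C3 KO (edgeR adjusted p = 0.868).

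**Figure D4:**
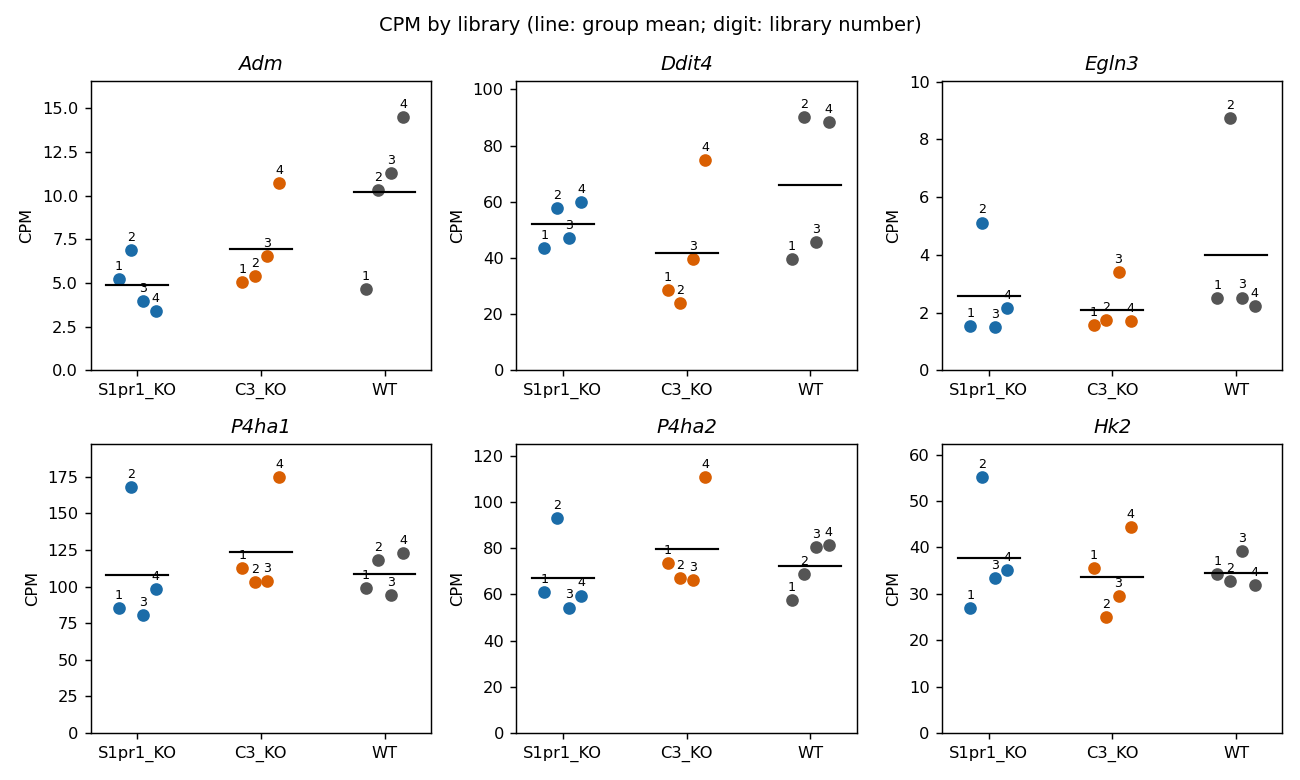
CPM (vertical axis, from 0) of Adm, Ddit4, Egln3, P4ha1, P4ha2 and Hk2 in S1pr1 KO, C3 KO and WT; each point is 1 library with its number and each line a group mean. The libraries labelled S1pr1 KO 2 and C3 KO 4 are the 2 highest for P4ha1 and P4ha2 (168 and 175 CPM for P4ha1), and WT 2 is highest for Egln3 at 8.75 CPM.

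The mitochondrial genes of the set overlapped between the groups. Bnip3l, a mitophagy receptor that also clears mitochondria from maturing red cells, was at 156, 163, 164 and 161 CPM in S1pr1 KO, at 162, 174, 243 and 152 CPM in C3 KO and at 159, 152, 146 and 159 CPM in WT. C3 KO 3 alone was high, and its 8 red cell markers summed to 24900 CPM against 965.9 to 4488 CPM in the other 11 libraries. Its 8 neutrophil markers also summed high, to 1404 CPM against 41.02 to 496.5 CPM in the other 11. The part of either cell type in the Bnip3l value was not tested. The log2 fold change in C3 KO against WT was 0.25 (edgeR adjusted p = 0.469) and 0.09 without C3 KO 3. Bnip3, its paralogue, averaged 35.1 ± 5.99 CPM in S1pr1 KO, 36.4 ± 4.11 CPM in C3 KO and 37.9 ± 8.78 CPM in WT (SD, n = 4 each). Higd1a, a small protein of the respiratory chain, averaged 37.5 ± 3.42 CPM in S1pr1 KO, 33.7 ± 2.31 CPM in C3 KO and 39.1 ± 4.3 CPM in WT, and its value in C3 KO against WT did not pass (log2 fold change -0.22, SE 0.09, edgeR adjusted p = 0.419).

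The remaining hypoxia response genes overlapped between groups. Mif, a secreted inflammatory mediator, was at 41.3, 38.7, 39 and 39.9 CPM in S1pr1 KO, at 39.1, 34.3, 33.6 and 32.5 CPM in C3 KO and at 38.9, 38.4, 38.2 and 33.2 CPM in WT. Its log2 fold change in S1pr1 KO against C3 KO was 0.19 (SE 0.07, 95% interval 0.04 to 0.34, edgeR adjusted p = 0.324). Ndrg1, a stress-induced gene of epithelium, lay between 32.4 and 52.8 CPM over all libraries. Ankrd37, a HIF target of unsettled function, lay between 1.71 and 5.86 CPM and Car9 between 1.46 and 2.27 CPM. Car9 was read only 51 to 98 times per library, and its 95% interval ran from a ratio of 0.70 to 1.24 in S1pr1 KO and from 0.747 to 1.33 in C3 KO against WT.

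Counted over all members, single libraries stood out. The library labelled S1pr1 KO 2 was above the gene's own median for 27 of 32 genes and was the highest of 12 for 8 of them, namely Aldoa, Pkm, Ldha, Tpi1, Pgk1, Pgam1, Ndrg1 and Hk2. In the same library 10 cardiomyocyte markers summed to 3219 CPM, against 171.7 to 1508 CPM in the other 11, and the skeletal muscle sum was 200.7 CPM. The part of heart and muscle RNA in the enzymes' levels was not tested. WT 3 was highest for 7 genes and above the median for 21, and C3 KO 2 was lowest for 7 genes and above the median for 7. In the library labelled C3 KO 4, 8 alveolar macrophage markers summed to 1779 CPM, against 387.7 to 745.3 CPM elsewhere.

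**Figure D5:**
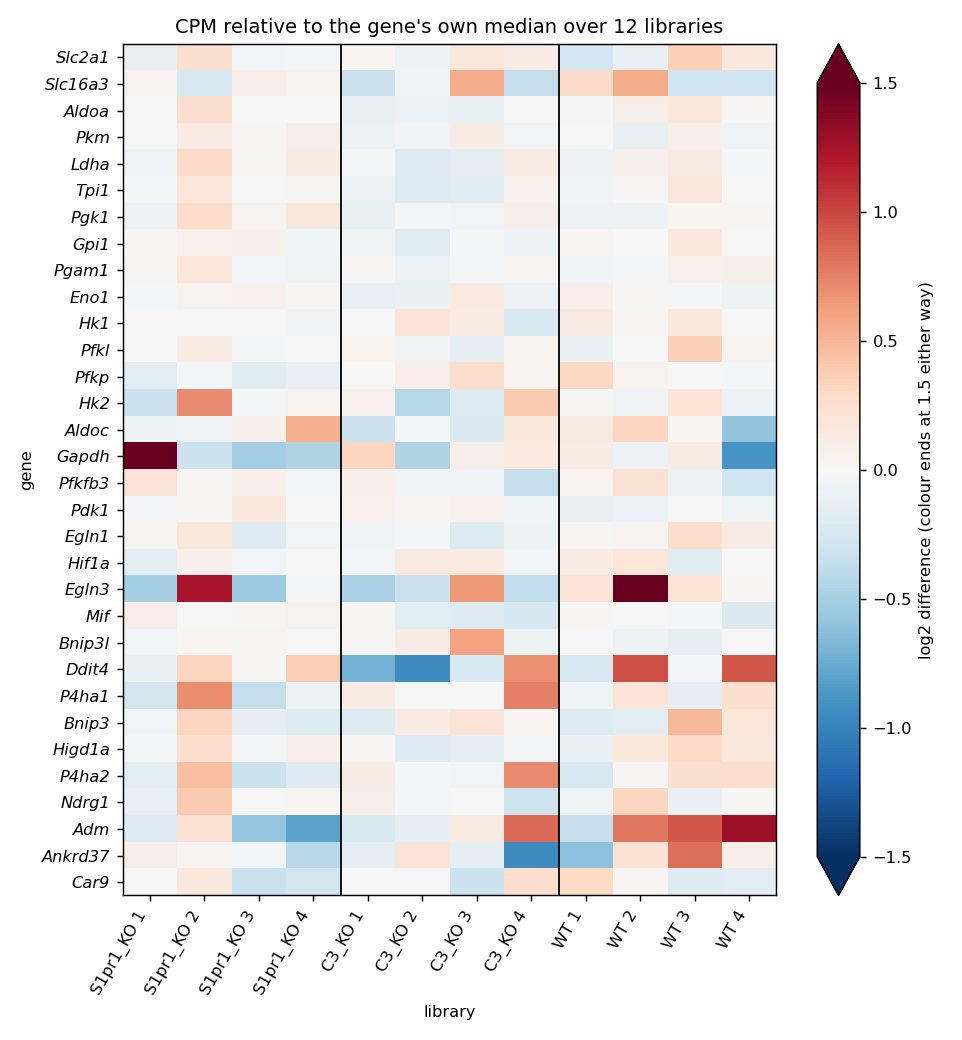
Log2 difference of each gene's CPM (rows) from its own median over the 12 libraries (columns, S1pr1 KO, C3 KO and WT from left to right), with red above and blue below the median and the colour ending at 1.5 either way. The column of the library labelled S1pr1 KO 2 is red for 27 of 32 genes, while Egln3, Ddit4, Adm and Gapdh show the strongest colours.

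Further genes of these pathways were taken in 4 lists. Of 20 other glycolysis enzymes tested, 18 of pyruvate entry and gluconeogenesis, 17 regulators of the HIF pathway and 25 other hypoxia targets, edgeR called none in any of the 3 comparisons. For S1pr1 KO against WT, where 18% of all genes had an unadjusted p under 0.05, the glycolysis list had 5 such genes (25%, median log2 fold change of the list 0.06), the pyruvate list 3 (16.7%, median 0.04), the HIF regulators 2 (11.8%, median -0.05) and the other targets 3 (12%, median -0.05). For S1pr1 KO against C3 KO, where all genes had 12%, there were 6 in the glycolysis list (30%, median 0.06), 1 in the pyruvate list (5.56%, median 0.08), 5 among the HIF regulators (29.4%, median -0.04) and 5 among the other targets (20%, median -0.06). For C3 KO against WT, where all genes had 11%, there were 2 in the glycolysis list (10%, median 0.01), 0 in the pyruvate list (median 0.03), 2 among the HIF regulators (11.8%, median -0.04) and 5 among the other targets (20%, median 0.02). DESeq2 called Lox and Pfkm, and limma voom with quality weights called Lox and Cited2. limma on log2(FPKM + 1) called none.

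Lox, the collagen crosslinking enzyme lysyl oxidase and a known HIF target, was at 27.2, 37, 25.4 and 20.7 CPM in S1pr1 KO, at 46.8, 60.8, 91.1 and 73.9 CPM in C3 KO and at 37, 50.7, 53.5 and 54.8 CPM in WT. All S1pr1 KO libraries lay below all C3 KO libraries, and the library labelled S1pr1 KO 2 lay level with WT 1. In edgeR the log2 fold change was -0.83 against WT (SE 0.21, adjusted p = 0.0727) and -1.30 against C3 KO (SE 0.21, adjusted p = 0.0665), the lowest adjusted p of the 4 lists and the set. DESeq2 gave -0.83 against WT (adjusted p = 0.00544) and -1.31 against C3 KO (adjusted p = 2.5e-06). limma voom with quality weights gave -0.95 against WT (adjusted p = 0.03) and -1.27 against C3 KO (adjusted p = 0.038). In limma on log2(FPKM + 1) it did not pass. Without the libraries labelled S1pr1 KO 2 and C3 KO 4, edgeR gave -1 against WT, which passed (adjusted p = 0.0412), and -1.44 against C3 KO, which did not (adjusted p = 0.0897). With 1 library left out, the edgeR adjusted p ran from 0.0579 to 0.208 against WT and from 0.0245 (without C3 KO 1, where it passed) to 0.251 against C3 KO.

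Pfkm, the muscle phosphofructokinase, averaged 49.4 ± 9.92 CPM in S1pr1 KO, 35 ± 1.13 CPM in C3 KO and 40.2 ± 3.94 CPM in WT (SD, n = 4 each). Between S1pr1 KO and C3 KO its log2 fold change was 0.50 (SE 0.12), with an adjusted p of 0.18 in edgeR and 0.021 in DESeq2. The library labelled S1pr1 KO 2 was the highest for Pfkm at 64.3 CPM, and without it and C3 KO 4 the value was 0.32 (edgeR adjusted p = 0.15). The 10 cardiomyocyte markers summed to 803.6 to 3219 CPM in S1pr1 KO. Their sums were 421 to 822 CPM in C3 KO and 171.7 to 661.5 CPM in WT. S1pr1 KO thus lay above WT without overlap but overlapped C3 KO. The part of these markers in the Pfkm value was not tested. Cited2, which competes with HIF for a coactivator, averaged 75 ± 19.2 CPM in S1pr1 KO and 103 ± 17.3 CPM in WT (log2 fold change -0.46, SE 0.16, edgeR adjusted p = 0.158; limma voom with quality weights -0.58, adjusted p = 0.0441). The testis-type Gapdhs averaged 3.05 ± 0.383 CPM in S1pr1 KO and 4.47 ± 0.822 CPM in WT (log2 fold change -0.55, SE 0.18, edgeR adjusted p = 0.145). Bpgm, which makes the haemoglobin effector bisphosphoglycerate in red cells, averaged 119 ± 139 CPM in C3 KO and 43.5 ± 13.8 CPM in WT, with 327 CPM in C3 KO 3, the library with the highest red cell sum.

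Other genes named by the same rule, the 2 of lowest p in each list and comparison, did not pass either. For S1pr1 KO against WT, the pyruvate carrier subunit Mpc1 had a log2 fold change of 0.34 (SE 0.12), the pyruvate dehydrogenase subunit Pdha1 0.20 (SE 0.07), the ubiquitin ligase Siah1a -0.23 (SE 0.10) and the lipid droplet gene Hilpda -0.37 (SE 0.14), the lowest of their edgeR adjusted p being 0.161. For S1pr1 KO against C3 KO, the vasoconstrictor gene Edn1 had -0.53 (SE 0.16), Arnt2 0.63 (SE 0.27) and Fbp1, of gluconeogenesis, -0.85 (SE 0.49), the lowest edgeR adjusted p being 0.275. In C3 KO against WT, Edn1 had 0.42 (SE 0.16), the ubiquitin ligase Siah2 -0.51 (SE 0.17), Rbx1, a subunit of the VHL ubiquitin ligase, -0.10 (SE 0.05), the inducible nitric oxide synthase Nos2 -0.87 (SE 0.35), Pck2 -0.18 (SE 0.10) and Mpc1 0.19 (SE 0.12), the lowest edgeR adjusted p being 0.346.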

How the data were processed

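The deposited counts are whole reads per gene in 12 libraries of whole lung, and the deposited FPKM table, made by the authors, gave the same reads per kilobase of gene and scaled library size. The submitters' processing notes name CASAVA and STAR, and GRCm39 (mm39) as the build. Not given in the sources used here are the counting tool, its strand setting and its handling of multiply mapped reads, and values of genes with near-identical copies or antisense partners are uncertain for that reason. Groups came from the sample labels, and library numbers follow accession order.

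The test was edgeR's quasi-likelihood test (edgeR 4.0.16, R 4.3.3). In it, filterByExpr left 20229 genes, TMM scaled the libraries, and 1 model held the means of the 3 groups over all 12 libraries, leaving 9 residual degrees of freedom. Benjamini-Hochberg adjustment ran over all genes tested, at a threshold of 0.05. Standard errors are the absolute log2 fold change over the square root of F. CPM are counts relative to the TMM-scaled library size. FPKM served for levels per listed gene length. Isoenzyme ratios are log2 ratios of counts + 0.5. The script was tested on simulated counts.

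Alternatives were RLE scaling, no filter, a filter of 1 CPM in 4 libraries, DESeq2 1.42.0, limma 3.58.1 (voom with quality weights; log2(FPKM + 1) and log2(FPKM + 0.1), with genes of 0.5 FPKM in 4 libraries or without that filter), fits of only the groups compared, a skeletal muscle score as a covariate, and leaving out each library, or the libraries labelled S1pr1 KO 2 and C3 KO 4 together. Summing Gapdh with the genes that share its sequence was added after seeing the data, as were the genes whose promoters are printed and the values of Lox and Pfkm with libraries left out. All 32 members were named, and from each further list the 2 genes of lowest p per comparison, 1 of which is not reported here. The members and lists were chosen with earlier results of these data known. Promoter sequences and shared words came from a reference of build GRCm38, matched by gene name.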

Additional observations from a re-analysis of the deposited data

Results flagged for a closer look

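Within groups of 4 libraries, a library was picked out when its gap to the nearest other, divided by the group's range, exceeded Dixon's 95% limit. This happened in 12 of the 99 groups examined (33 rows in 3 groups). For normally distributed values chance gives about 4.95. The rows share the same libraries and are not independent, so 12 against 4.95 is no test of an excess.

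In S1pr1 KO, the library labelled S1pr1 KO 2 was high for Aldoa at 566 CPM (the others 476 to 478 CPM) and for Pfkl at 74.5 CPM (67.6 to 68.3 CPM), and low for Slc16a3 at 17.5 CPM (21.2 to 21.8 CPM). S1pr1 KO 1 was high for Gapdh at 35.6 CPM (5.47 to 6.24 CPM), with 1.269 CPM of the pseudogene Gm13394. S1pr1 KO 3 was high for Pdk1 at 43.7 CPM (38.4 to 39.2 CPM).

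In C3 KO, the library labelled C3 KO 4 was high for P4ha1 at 175 CPM (103 to 113 CPM), for P4ha2 at 111 CPM (66.1 to 73.5 CPM) and for Aldoa at 473 CPM (443 to 447 CPM). C3 KO 3 was high for Eno1 at 174 CPM (145 to 148 CPM) and for Egln3 at 3.39 CPM (1.56 to 1.73 CPM).

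In WT, WT 2 was high for Egln3 at 8.75 CPM (2.22 to 2.52 CPM), and WT 4 was low for Mif at 33.2 CPM (38.2 to 38.9 CPM).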

How the results depend on the processing

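No paired analysis was possible because the labels give the groups no shared replicate numbers. The count of members called stayed at 0 in each comparison and alternative, apart from 1 (Adm) in S1pr1 KO against WT under DESeq2, and it was 0 with each library left out in turn. Of the single-gene values under the alternatives, 2242 stayed within the spread between replicates, 37 moved beyond it and 1 newly passed.

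The number of genes called over the whole table, against which the members are read, depended on the tool. For S1pr1 KO against WT it was 274, and 1224 in DESeq2, 928 in limma voom, 171 with log2(FPKM + 1), 150 with log2(FPKM + 0.1), 64 with log2(FPKM + 1) and no filter, and 473 without the libraries labelled S1pr1 KO 2 and C3 KO 4. With 1 library left out it ran from 2 (without S1pr1 KO 4) to 571 (without the library labelled C3 KO 4). Between S1pr1 KO and C3 KO it was 0, and 293 in DESeq2, 36 in limma voom and 15 with no filter on low counts. It was 7 with log2(FPKM + 1), 6 with log2(FPKM + 0.1) and 1 with log2(FPKM + 1) and no filter. Without the libraries labelled S1pr1 KO 2 and C3 KO 4 it was 3, and with 1 library left out it ran from 0 to 13. In C3 KO against WT it was 2, and 155 in DESeq2, 21 in limma voom, 6 with log2(FPKM + 1), 6 with log2(FPKM + 0.1), 1 with only the 2 groups compared, 1 with the muscle score, and 31 without both libraries; with 1 left out it ran from 1 to 32 (without the library labelled C3 KO 4). The cause was not tested.

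The median log2 fold change of the members moved by more than the spread between replicates to -0.082 in S1pr1 KO against WT without both libraries, to 0.03 (limma voom), 0.038 (muscle score) and 0.019 (without both) in S1pr1 KO against C3 KO, and to -0.012 in C3 KO against WT with the muscle score. With 1 library left out it ran from -0.082 to 0.024, from 0.023 to 0.104 and from -0.082 to -0.033 in these comparisons. The differences in log2 Hk2/Hk1 were -0.019 in S1pr1 KO and -0.231 in C3 KO against WT without both libraries. That of Aldoc/Aldoa was 0.267, and that of Ldha/Ldhb 0, in S1pr1 KO against C3 KO. With 1 library left out, Hk2/Hk1 ran from -0.019 to 0.325 in S1pr1 KO against WT, from -0.014 to 0.41 in S1pr1 KO against C3 KO and from -0.231 to 0.183 in C3 KO against WT. Aldoc/Aldoa ran from -0.031 to 0.262, from -0.078 to 0.201 and from -0.112 to 0.169, and Ldha/Ldhb from 0.021 to 0.139, from 0.023 to 0.138 and from -0.052 to 0.047, in the same comparisons. Depth limits the second Aldoa row most, with at least 33 reads in each library, then Car9 (51), Egln3 (54) and Ankrd37 (67).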
